A study of Xenopus tropicalis with 52 samples.

Results

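The experiment described here is the loss-of-function (LOF) of 4 zygotic T-box transcription factors (TFs) in *Xenopus tropicalis* embryos at stage 11+, the mid-gastrula. It consists of the 4 libraries labelled 4x zT LOF at stage 11+ and the 4 libraries of the control morpholino (MO) at the same stage, which were chosen by their titles, so that 8 of the 52 samples of the series were used. An MO is an antisense oligonucleotide that blocks either the translation or the splicing of a transcript. Each 4x zT LOF embryo received 5 ng of a translation-blocking MO against zygotic *vegt*, 5 ng of a splice-blocking MO against *eomes*, and 2.5 ng each of a translation- and a splice-blocking MO against *tbxt* and likewise against *tbxt.2*. Control embryos received the standard control MO, which the labels give as 5 or 20 ng to match the dose of the experiment. For these libraries 20 ng was inferred from the summed dose of the T-box MOs and is not stated. All embryos were wild type, of the out-bred Nigerian strain, and were injected as zygotes into the animal pole, and poly(A) RNA was sequenced from whole embryos, 10 to 15 of them in a library. The replicate numbers of the 2 groups pair the libraries, and a pair below is a 4x zT LOF and a control library of one number. The embryos were pooled whole, so less of a transcript can mean fewer cells of a type or less RNA per cell, which cannot be told apart here.

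T-box TFs share a DNA-binding domain. In vertebrate gastrulae *tbxt* (Brachyury) and its neighbor *tbxt.2* mark the ring of mesoderm around the blastopore and the notochord, *eomes* acts in early mesendoderm, and zygotic *vegt* is found in the mesoderm of the marginal zone. Mesoderm and endoderm are induced by Nodal signals, and the mesoderm is then kept and patterned by FGF, Wnt, and BMP signals. Paraxial mesoderm, which flanks the notochord, gives rise to somites and skeletal muscle.

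The authors deposited counts of reads on the exons and, separately, on the introns of each gene. Exon counts came to 38198848 to 45437049 per library in 4x zT LOF and to 37931058 to 52487578 in control MO. Introns held 5.38% to 6.2% of the counts in 4x zT LOF and 5.30% to 5.61% in control MO. Values below are normalized counts, that is counts scaled by TMM factors to a common library size, for exons and introns apart, and they compare libraries, not genes. Differences were tested with edgeR's quasi-likelihood test with the replicate number as a block, p-values were adjusted by Benjamini-Hochberg over all genes tested, and a gene is called at an adjusted p of at most 0.1. Of the 25 markers of 6 cell classes chosen to check the whole embryos, 24 passed the filter on low counts, the exception being the muscle gene *mylpf*. In exons 15226 genes were tested and 8733 were called, 57.4% of them, with 4231 lower (27.8%) and 4502 higher (29.6%) in 4x zT LOF. Scaling by total counts alone gave 3244 lower and 5285 higher, and the fit without the block called 4910 genes. Since more than 1 gene in 2 was called, a change of at least 2-fold was asked for as well, and 1368 genes (8.98%) met both, 534 lower (3.51%) and 834 higher (5.48%). In introns 10682 genes were tested, 4414 were called (41.3%), 2248 lower (21%) and 2166 higher (20.3%), and 744 also changed at least 2-fold (6.96%). Of these, 346 were at least 2-fold lower (3.24%) and 398 at least 2-fold higher (3.73%).

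The transcripts of the 4 targeted genes did not move alike. The exon counts of *tbxt.2* (Xetro.E00957) were 68.2, 321, 47.3 and 21.8 in 4x zT LOF, against 2106, 3256, 2467 and 2169 in control MO, in the order of replicates 1 to 4. The groups did not overlap, and the library of replicate 2 kept the most *tbxt.2* of the 4x zT LOF libraries. The mean of 4x zT LOF was 4.59% of that of control MO, with a log2 fold change of -4.85 (SE 0.42, adjusted p = 8.78e-05). Without replicate 2 the log2 fold change was -5.65. Its introns fell as well, with 22.8, 46.5, 12.3 and 13.5 in 4x zT LOF, against 198, 292, 164 and 188 in control MO, and a log2 fold change of -3.22 (SE 0.18, adjusted p = 3.92e-10).

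The adjacent gene *tbxt* (Xetro.E00956) had a smaller change in exons, with 21207, 24415, 22062 and 18544 in 4x zT LOF, against 23694, 31665, 27975 and 34745 in control MO. The lowest control library lay below the highest 4x zT LOF library, although *tbxt* was lower in 4x zT LOF in all 4 pairs. The log2 fold change was -0.45 (SE 0.10, adjusted p = 0.00815). Its introns went the other way, with 5878, 7004, 5610.0 and 5601 in 4x zT LOF, against 1056, 1505, 1021 and 1634 in control MO and a log2 fold change of 2.23 (SE 0.10, adjusted p = 1.22e-11). Introns held 27.5 ± 1.00 counts per 100 exon counts of *tbxt* in 4x zT LOF and 4.41 ± 0.40 in control MO (SD, n = 4 each). When exon and intron counts of the gene were summed, the log2 fold change of *tbxt* was -0.16 and was not called (adjusted p = 0.246).

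Transcripts of *eomes* (Xetro.F01268) rose in exons, with 21972, 27016, 25841 and 26961 in 4x zT LOF, against 9145, 9824, 8731 and 8499.5 in control MO and a log2 fold change of 1.49 (SE 0.07, adjusted p = 1.09e-05). The introns of *eomes* rose further, with 3986, 4787, 4744 and 6025 in 4x zT LOF, against 409, 352, 292 and 306 in control MO and a log2 fold change of 3.84 (SE 0.12, adjusted p = 5e-13). In neither did the groups overlap. The *vegt* gene (Xetro.N00856), whose exon counts add its maternal and zygotic transcripts, stood at 94267, 106733, 96851 and 92908 in 4x zT LOF, against 43954, 58467, 42983 and 58712 in control MO, with a log2 fold change of 0.95 (SE 0.08, adjusted p = 8.4e-05). Its introns were at 3577, 4464, 3083 and 4255 in 4x zT LOF, against 702, 787, 455 and 608 in control MO, a log2 fold change of 2.60 (SE 0.09, adjusted p = 5e-13). For all 4 genes the intron change exceeded the exon change in the test of the difference, by 2.66 (SE 0.12, adjusted p = 1.13e-07) on the log2 scale for *tbxt*, by 2.34 (SE 0.13, adjusted p = 5.15e-07) for *eomes*, by 1.64 (SE 0.16, adjusted p = 4.5e-05) for *vegt* and by 1.61 (SE 0.33, adjusted p = 0.00508) for *tbxt.2*. Splice-blocking MOs were used against *tbxt*, *tbxt.2* and *eomes* but not against *vegt*, and their part in the intron counts was not tested.

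**Figure D1:**
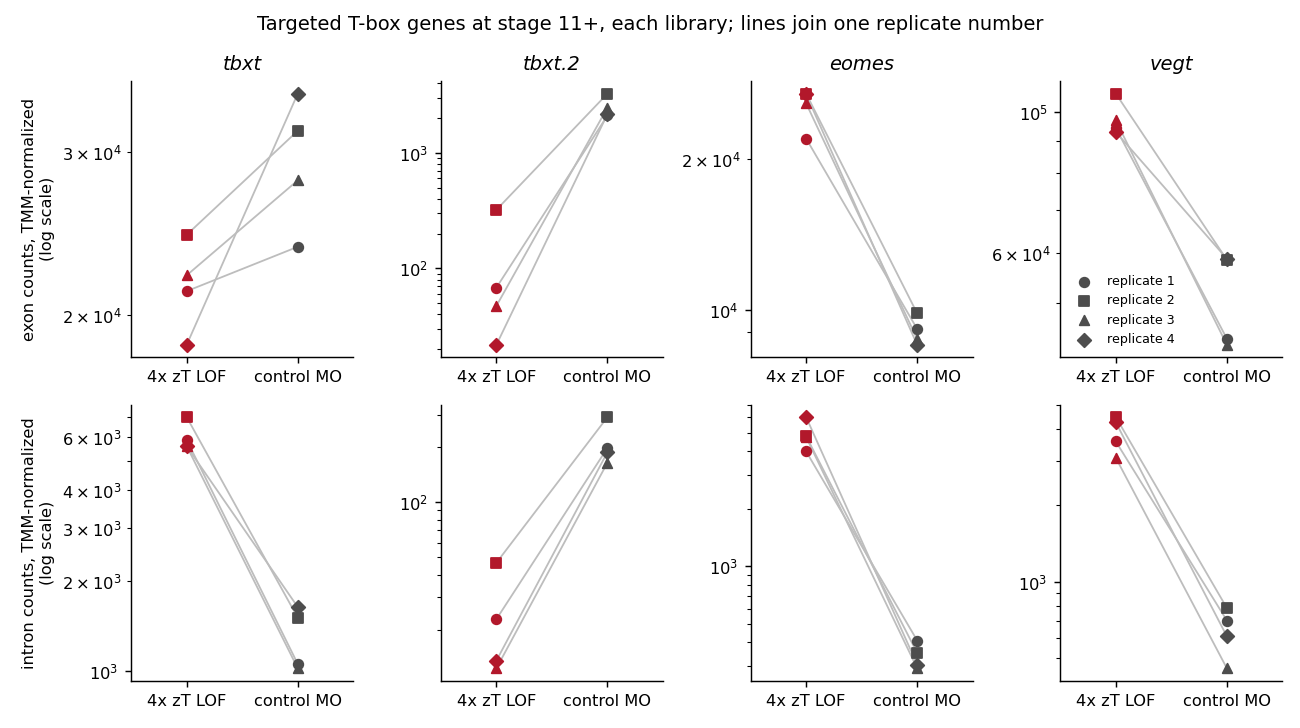
Normalized exon counts (top) and intron counts (bottom) of the targeted genes on log scales, with 4x zT LOF libraries in red on the left, control MO libraries in gray on the right, and lines between libraries of one replicate number. Exons of *tbxt.2* fell to 4.59% of control, exons of *eomes* and *vegt* stood at 281% and 191%, and introns of all but *tbxt.2* were higher in every 4x zT LOF library than in any control library.

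The largest falls included regulators of paraxial mesoderm and of the first muscle cells. The 10 largest falls among called genes with a symbol, at least 50 counts on average and the same direction in all 4 pairs were in *tbxt.2*, *myod1*, *plod2*, *pcdh8l*, *ripply2.1*, *myf5*, *hes8*, *sfrp1*, *msgn1*, and *insm2*. *myod1* (Xetro.K04379), a bHLH factor that commits cells to skeletal muscle, had 6.54, 24.5, 2.90 and 2.84 in 4x zT LOF, against 161, 234, 254 and 210.0 in control MO. Its level in 4x zT LOF was 4.28% of control, a log2 fold change of -4.64 (SE 0.40, adjusted p = 8.15e-05). *myf5* (Xetro.C01601), a second bHLH factor of the muscle lineage, had 156, 445, 148 and 112 in 4x zT LOF, against 1876, 2610.2, 2255 and 2428 in control MO, a log2 fold change of -3.58 (SE 0.26, adjusted p = 4.72e-05). In both genes every 4x zT LOF library was below every control library, and replicate 2 was the highest of the 4x zT LOF libraries. Without replicate 2 the log2 fold changes were -5.60 for *myod1* and -3.98 for *myf5*.

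*msgn1* (Xetro.I02074), a bHLH factor of unsegmented paraxial mesoderm, had 157, 374, 252 and 137 in 4x zT LOF, against 1129.5, 2055, 2503 and 2487 in control MO, a log2 fold change of -3.18 (SE 0.24, adjusted p = 5.18e-05). The segmentation repressor *ripply2.1* (Xetro.E00553), which in fish and mouse antagonizes T-box TFs in forming somites, had 26.2, 33.4, 26.1 and 12.3 in 4x zT LOF, against 249, 331, 328 and 285 in control MO, a log2 fold change of -3.62 (SE 0.20, adjusted p = 1.98e-05). Its neighbor *ripply2.2* fell as well, with a log2 fold change of -2.07 (SE 0.25, adjusted p = 0.000334). Near-identical stretches of neighboring copies could share reads in the counting, which leaves the split between such pairs uncertain.

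Outside these groups, *plod2* (Xetro.E00020), a lysyl hydroxylase that modifies collagen, had 345, 579, 297 and 279.7 in 4x zT LOF, against 3221, 4754, 6441 and 5560.2 in control MO, a log2 fold change of -3.74 (SE 0.24, adjusted p = 3.04e-05). The secreted Wnt antagonist *sfrp1* had 45.8, 55.6, 25.1 and 26.5 in 4x zT LOF, against 257, 411, 549 and 367 in control MO, a log2 fold change of -3.35 (SE 0.28, adjusted p = 7.49e-05). The protocadherin *pcdh8l* had 12.1, 45.6, 12.6 and 19.0 in 4x zT LOF, against 164, 296, 464 and 218 in control MO, a log2 fold change of -3.69 (SE 0.32, adjusted p = 8.97e-05). The control libraries of *pcdh8l* and of the Hes family gene *hes8* spread widely, *hes8* having 9.34, 21.1, 9.66 and 5.69 in 4x zT LOF, against 35.4, 111, 209 and 203 in control MO, yet neither gene's groups overlapped. The zinc finger gene *insm2* had a log2 fold change of -2.92 (SE 0.19, adjusted p = 3.24e-05).

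Replicate 2 had the highest count among the 4x zT LOF libraries in 10 of these 10 genes. In all 534 genes that were called and at least 2-fold lower, it did not stand out in this way. There replicate 2 was the highest in 158 genes (29.6%, beside 23.0% of all genes tested) and replicate 3 in 176 (33.0%, beside 27.2%). Replicate 1 was the highest in 151 (28.3%, beside 24.6%) and replicate 4 in 49 (9.18%, beside 25.2%). Over the 534 genes the median log2 ratio was -1.02 in pair 1, -1.19 in pair 2, -1.55 in pair 3 and -1.62 in pair 4. The groups were apart in all of the 10 genes and in 371 of the 534 (69.5%), beside 26.8% of all genes tested. The 10 genes and the 534 were chosen by this contrast, so these values describe them only. With any 1 pair left out the log2 fold changes of the 10 genes stayed at -2.73 or lower.

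**Figure D2:**
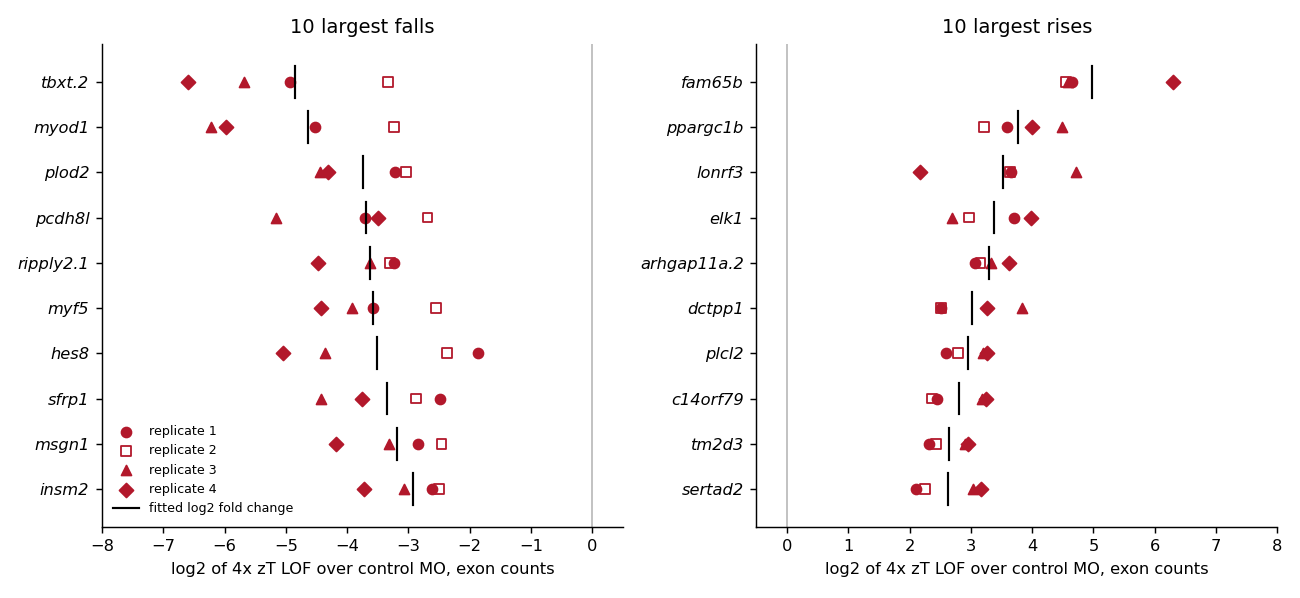
The log2 ratio of 4x zT LOF over control MO in exon counts for the 10 largest falls and the 10 largest rises, 1 symbol for each of the 4 pairs and a bar for the fitted log2 fold change. The 10 genes of each panel were chosen to have the same direction in all 4 pairs, which fixed the side of 0 on which their ratios lie. The open squares of replicate 2 lie nearest to 0 in 7 of the 10 falls, among them *tbxt.2*, *myod1*, and *myf5*. Those of replicate 1 do so in 3.

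Of the 16 tested genes on the paraxial mesoderm list, 11 fell (68.8%, beside 27.8% of all genes), 2 rose (beside 29.6%), and 3 did not pass the test. The list had 7 members at least 2-fold lower (43.8%, beside 3.51% of all genes) and a median log2 fold change of -0.65, beside 0.00 over all genes tested. The forkhead genes *foxc1* and *foxc2*, which act in paraxial and intermediate mesoderm, fell, with log2 fold changes of -2.31 (SE 0.14, adjusted p = 2.4e-05) and -1.76 (SE 0.22, adjusted p = 0.000423). *foxc1* had 1348, 1423, 1228 and 759 in 4x zT LOF, against 5217, 6372, 5825 and 5618 in control MO, with no overlap. *pax3*, a paired-box gene of the early somite and neural crest, had a log2 fold change of -1.71 (SE 0.17, adjusted p = 0.000163) and lower counts in every 4x zT LOF library than in any control library. The segmentation gene *mespb* had a log2 fold change of -0.62 (adjusted p = 0.000146). Its relative *mespa* had 538, 466, 506 and 715 in 4x zT LOF, against 409, 505, 493 and 665 in control MO, with overlapping groups and a log2 fold change of 0.11 (SE 0.10, adjusted p = 0.419), whose 95% interval was -0.09 to 0.30. The paraxial protocadherin *pcdh8.2*, a mediator of convergent extension, had a log2 fold change of -0.24 (adjusted p = 0.0113) and overlapping groups, and it was not called without the block (adjusted p = 0.242). The 2 members that rose were the protocadherin *pcdh8*, at 0.75 (adjusted p = 0.00547), and *hes7.1*, at 0.45 (adjusted p = 0.00313). Neither was among the named genes checked in the closing sections.

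On the muscle list the regulators *myod1* and *myf5* and the actin *actc1* fell, but many other members did not pass the test. Of 17 tested members 7 fell, 2 rose, and 8 did not pass the test, beside 27.8% lower and 29.6% higher among all genes, with a median log2 fold change of -0.27, and 8 more had too few counts. Cardiac actin *actc1*, an early product of muscle cells, had 40.2, 76.7, 32.8 and 59.7 in 4x zT LOF, against 161, 366, 393 and 424 in control MO, a log2 fold change of -2.66 (SE 0.23, adjusted p = 8.36e-05). Counting *myod1* and *myf5*, 4 members were at least 2-fold lower (23.5%, beside 3.51% of all genes). Together the markers *myod1*, *myf5*, and *actc1* summed to 174 to 546 normalized counts per library in 4x zT LOF and to 2198 to 3211 in control MO.

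Among 6 other T-box genes tested, 5 fell in exons (83.3%, beside 27.8% of all genes) and none rose, with a median log2 fold change of -1.06. In introns none of 5 tested members was called lower and 1 was called higher (beside 21% and 20.3% of all genes), and the median was 0.09. *tbx2*, a repressor T-box gene of the ventral and dorsal ectoderm, had 1163, 1291, 1935 and 1022 in 4x zT LOF, against 2194, 3339.8, 3513 and 3676 in control MO, a log2 fold change of -1.25 (SE 0.15, adjusted p = 0.000335). The related *tbx3* had 529, 727, 1297 and 443 in 4x zT LOF, against 1118, 1840.4, 2388 and 2335 in control MO, which overlap, and a log2 fold change of -1.41 (SE 0.22, adjusted p = 0.001). The introns of *tbx2* and *tbx3* were not called, with log2 fold changes of -0.18 and 0.13. The counts of *tbx18* were low, with 14, 1.11, 6.76 and 3.79 in 4x zT LOF, against 25.1, 20.1, 14.5 and 14.8 in control MO. *tbx6*, the T-box gene of paraxial mesoderm, was not analysed here.

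Caudal and Hox genes, which set posterior identity, were mostly lower in exons. Of 14 tested members 12 fell (85.7%, beside 27.8% of all genes) and none rose, with 8 at least 2-fold lower (57.1%, beside 3.51% of all genes). The median log2 fold change was -1.04 and ranged from -1.43 to -0.67 over the 4 pairs. In introns 3 of 6 tested members were called lower (50%, beside 21% of all genes) and none higher, with a median of -0.47. The homeobox gene *evx1*, a marker of ventral and posterior mesoderm, had 621, 680.3, 1179 and 488 in 4x zT LOF, against 1527, 2116, 2607 and 2684 in control MO, a log2 fold change of -1.63 (SE 0.19, adjusted p = 0.000296). The caudal homologs *cdx1*, *cdx2*, and *cdx4* had log2 fold changes of -1.03, -1.05, and -0.93 (adjusted p = 0.000364, 0.00034, and 0.000423). *cdx1* had 4240.0, 5408, 5540.2 and 4084 in 4x zT LOF, against 6955, 9608, 11061 and 12371 in control MO, without overlap. The introns of *cdx1* and *cdx2* were not called, with log2 fold changes of 0.19 and -0.23 (adjusted p = 0.161 and 0.17). *hoxd1* had a log2 fold change of -0.92 (SE 0.12, adjusted p = 0.000439). Another 19 members with a gene identifier had too few counts to be tested at this stage.

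Organizer and notochord genes were more often lower than higher in exons, but not in introns. Of 18 tested members 9 fell (50%, beside 27.8% of all genes), 3 rose (beside 29.6% of all genes), and 6 did not pass the test. The median log2 fold change was -0.18. In introns 4 of 16 tested members were called lower and 7 higher (beside 21% and 20.3% of all genes), with a median of 0.34. Summed over *chrd*, *shh*, *not*, and *gsc*, exon counts came to 17456 to 24239 in 4x zT LOF and 19030 to 23281 in control MO, ranges that overlap. Sonic hedgehog (*shh*), a signal of the notochord and floor plate, had 57.0, 61.1, 51.2 and 26.5 in 4x zT LOF, against 185, 167, 290.4 and 244 in control MO, a log2 fold change of -2.18 (SE 0.26, adjusted p = 0.000324). The forkhead gene *foxa2* had a log2 fold change of -1.11 (SE 0.20, adjusted p = 0.00202). The BMP antagonist *chrd* fell, with 9853, 12195, 8736 and 6849 in 4x zT LOF, against 12658, 15373, 13051 and 12724 in control MO and a log2 fold change of -0.54 (SE 0.09, adjusted p = 0.00144). In the other direction, *not*, a homeobox gene of the forming notochord, had 7361, 8792, 6601 and 8601 in 4x zT LOF, against 5666, 5357, 4270.3 and 4941 in control MO, a log2 fold change of 0.63 (SE 0.07, adjusted p = 0.00025). The organizer homeobox gene *gsc* had 2464, 3190.5, 2068 and 2316 in 4x zT LOF, against 1895, 2384, 1515 and 1121 in control MO, which overlap, and a log2 fold change of 0.57 (SE 0.11, adjusted p = 0.00314), a call that was lost without the block (adjusted p = 0.119). Its introns were at 113, 154, 93.8 and 119.6 in 4x zT LOF, against 67.1, 63.4, 43.0 and 35.3 in control MO with no overlap, a log2 fold change of 1.22 (SE 0.17, adjusted p = 1.86e-05).

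Of 17 tested endoderm genes 8 were lower in exons (47.1%, beside 27.8% of all genes), with a median log2 fold change of -0.13. Another 5 were higher, a share near the 29.6% of all genes. At least 2-fold lower were 2 members (11.8%, beside 3.51% of all genes), *foxa2* and *cdx2*. Both were counted above as well, *foxa2* with the organizer and notochord genes and *cdx2* with the caudal and Hox genes. Another 3 members were at least 2-fold higher (17.6%, beside 5.48%). In introns 4 of 14 tested members were called lower and 6 higher, beside 21% and 20.3% of all genes. At least 2-fold higher in introns were 3 members (21.4%, beside 3.73% of all genes), and none was 2-fold lower. The HMG-box factor *sox17a*, which drives endoderm formation, had 10518, 11610.3, 11995 and 10281 in 4x zT LOF, against 14056, 15323, 15813 and 16705 in control MO, a log2 fold change of -0.48 (SE 0.06, adjusted p = 0.000448). By contrast, *sox7*, a relative of *sox17a*, had 941, 1207, 862 and 964 in 4x zT LOF, against 347, 470.1, 239.8 and 228 in control MO, a log2 fold change of 1.67 (SE 0.13, adjusted p = 5.57e-05). The homeobox gene *bix1.1*, one of a family of close copies, had a log2 fold change of 1.01 (SE 0.11, adjusted p = 0.000214). The homeobox gene *mixer* was not called in exons and the zinc finger gene *gata5* was called higher, with log2 fold changes of -0.10 (adjusted p = 0.182, 95% interval -0.21 to 0.01, but called at -0.16 without replicate 1, adjusted p = 0.06) and 0.25 (adjusted p = 0.0111, and 0.332 without the block). Their introns rose, to 65.7, 134, 117 and 143 in 4x zT LOF, against 21.6, 26.2, 23.9 and 17.7 in control MO for *mixer*, a log2 fold change of 2.36 (SE 0.20, adjusted p = 7.47e-08), with one of 1.71 (SE 0.10, adjusted p = 7.2e-10) for *gata5*. Summed over *sox17a*, *sox17b*, *gata5*, *gata6*, and *foxa1*, endoderm markers came to 33272 to 40425 normalized exon counts in 4x zT LOF and to 46718 to 53672 in control MO.

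Nodal pathway genes were more often higher than lower, and their median log2 fold change of 0.47 in exons was the highest of the 19 lists. Of 17 tested members 9 rose (beside 29.6% of all genes), 4 fell (23.5%, near the 27.8% of all genes), and 4 did not pass the test. At least 2-fold higher were 5 members (29.4%, beside 5.48% of all genes). In introns 6 of 11 tested members were called higher and 2 lower (beside 20.3% and 21% of all genes), with a median of 0.21. None of them was at least 2-fold higher in introns, and the introns of *smad3* had a log2 fold change of 0.21 (adjusted p = 0.0866). The ligand *nodal6* had 92.5, 196, 60.8 and 171 in 4x zT LOF, against 33.1, 48.7, 6.2 and 25.2 in control MO, a log2 fold change of 2.25 (SE 0.26, adjusted p = 0.00026). The ligand *nodal5* had 49.5, 118, 26.1 and 95.8 in 4x zT LOF, against 21.7, 41.3, 11.4 and 20.8 in control MO, which overlap, and a log2 fold change of 1.58 (SE 0.22, adjusted p = 0.000695). *nodal3.1*, a divergent member expressed in the organizer, had a log2 fold change of 1.49 (SE 0.24, adjusted p = 0.00122). These ligands are encoded by clustered copies, so reads may be shared among them. The Nodal antagonists *dand5* and *lefty* rose too, with log2 fold changes of 1.62 (SE 0.29, adjusted p = 0.00207) and 0.47 (SE 0.10, adjusted p = 0.00391), and *smad3*, a transducer of the signal, had 3339.5, 3759, 3059 and 4042 in 4x zT LOF, against 1549.8, 1727, 1427 and 1554 in control MO, a log2 fold change of 1.18 (SE 0.07, adjusted p = 2.31e-05). Among the 4 members that fell was *gdf3*, a ligand of the TGF-beta family, with 614, 1348, 621 and 1438 in 4x zT LOF, against 3001, 3825, 3096 and 3164 in control MO and a log2 fold change of -1.80 (SE 0.19, adjusted p = 0.000187).

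Wnt pathway genes were mostly lower, in exons, with 15 of 23 tested members down (65.2%, beside 27.8% of all genes), 2 up (beside 29.6%), and a median log2 fold change of -0.48. At least 2-fold lower were 2 members (8.70%, beside 3.51% of all genes). The 2 that rose were *tcf7*, at 0.86 (adjusted p = 0.000125), and *notum*, at 0.20 (adjusted p = 0.029). Both were called lower in introns, and neither was among the named genes checked in the closing sections. In introns 7 of 19 tested members were called lower and 6 higher (beside 21% and 20.3% of all genes), with a median of -0.02. The ligand *wnt8a*, expressed in ventral and lateral mesoderm, had 2786, 3896, 3385 and 3078 in 4x zT LOF, against 5534, 7879, 6523 and 7807 in control MO, a log2 fold change of -1.07 (SE 0.07, adjusted p = 3.6e-05). *rspo3*, a secreted enhancer of Wnt signals, had 262, 291, 319.7 and 229 in 4x zT LOF, against 521, 789.9, 774 and 919.9 in control MO in exons, a log2 fold change of -1.43 (SE 0.15, adjusted p = 0.000204). With exon and intron counts summed, *rspo3* was at -0.18 and no longer called (adjusted p = 0.339). Its introns rose, with 685, 493, 781 and 753 in 4x zT LOF, against 269, 326, 332 and 363 in control MO and a log2 fold change of 1.06 (SE 0.11, adjusted p = 8.25e-07). The ligands of convergent extension *wnt11b* and *wnt5b* fell in exons, with log2 fold changes of -0.89 (SE 0.09, adjusted p = 0.000148) and -0.34 (SE 0.09, adjusted p = 0.0115), the call of *wnt5b* being lost without the block (adjusted p = 0.126), and the introns of *wnt5b* rose, with a log2 fold change of 1.64 (SE 0.12, adjusted p = 1.58e-08).

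In the FGF pathway 13 of 23 tested members fell in exons (56.5%, beside 27.8% of all genes) and 2 rose (beside 29.6%), with a median log2 fold change of -0.27. At least 2-fold lower were 4 members (17.4%, beside 3.51%), and 1 was at least 2-fold higher (4.35%, beside 5.48%). That was the ligand *fgf9*, with the list's largest change, at 1.76 (adjusted p = 0.00184) in exons and 1.12 (adjusted p = 0.017) in introns. *fgf8*, a ligand expressed around the blastopore, had 1963, 2306, 2059 and 1819 in 4x zT LOF, against 2100.3, 2692, 1896 and 2317 in control MO, with overlapping groups and a log2 fold change of -0.14 (SE 0.08, adjusted p = 0.191) and a 95% interval of -0.30 to 0.02, and it was called lower without replicate 3 (-0.22, adjusted p = 0.0702). The ligand *fgf20* had a log2 fold change of -0.91 (SE 0.13, adjusted p = 0.000636). *spry4*, a feedback inhibitor that FGF signals induce, had 216, 418, 228 and 241 in 4x zT LOF, against 436, 706, 503 and 774 in control MO, a log2 fold change of -1.15 (SE 0.15, adjusted p = 0.000427). In the ventral and BMP list 19 of 23 tested members fell in exons (82.6%, beside 27.8% of all genes) and 2 rose (beside 29.6%). The median was -0.41, and 3 members were at least 2-fold lower (13.0%, beside 3.51% of all genes). At least 2-fold higher was 1 member (4.35%, beside 5.48%). That was *hand2*, with the list's largest change, at 1.68 (adjusted p = 0.000165) in exons and 1.39 (adjusted p = 0.00548) in introns. Neither *hand2* nor *fgf9* was among the named genes checked in the closing sections. In introns 7 of 22 tested members were called lower and 7 higher, beside 21% and 20.3% of all genes. The homeobox genes *msx1* and *ventx3.2*, targets of BMP signals, had log2 fold changes of -1.07 (SE 0.13, adjusted p = 0.000393) and -1.10 (SE 0.08, adjusted p = 5.12e-05).

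Of 22 tested Notch pathway genes 12 fell in exons (54.5%, beside 27.8% of all genes) and 2 rose (beside 29.6%), with a median of -0.35. In introns 5 of 15 tested members were called lower and 4 higher (beside 21% and 20.3% of all genes), with a median of 0.06. At least 2-fold lower in exons were 5 genes (22.7%, beside 3.51% of all genes), whose introns were not tested. All 5 belong to the Hes family of bHLH repressors, with log2 fold changes of -2.31 (SE 0.20, adjusted p = 9.3e-05) for *hes3.3*, -1.85 (SE 0.22, adjusted p = 0.000326) for *hes9.1*, -1.35 (SE 0.17, adjusted p = 0.00045) for *esr10*, -1.31 (SE 0.24, adjusted p = 0.00266) for *hes5.1*, and that of *hes8* given above. *hes3.3* had 24.3, 36.7, 30.9 and 35.1 in 4x zT LOF, against 69.7, 187, 162 and 239.5 in control MO, without overlap. The files give *hes3.3*, *hes8*, *esr10*, and *hes9.1* consecutive gene identifiers (Xetro.G01634 to Xetro.G01637). In the control group replicate 1 was the lowest library in each of these 5 genes. Retinoic acid genes fell in exons in 7 of 11 cases (63.6%, beside 27.8% of all genes) and rose in 2 (beside 29.6%), with a median of -0.43. The 2 that rose were *rxra*, at 0.93 (adjusted p = 0.00181), and *rxrg*, at 0.94 (adjusted p = 0.00072), neither of them among the named genes checked in the closing sections. The receptor *rara* had a log2 fold change of -1.14 (SE 0.11, adjusted p = 0.000151) and *dhrs3*, a reductase that limits retinoic acid, one of -1.35 (SE 0.17, adjusted p = 0.000415).

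Among 23 genes of gastrulation movements 17 fell in exons (73.9%, beside 27.8% of all genes) and 2 rose (beside 29.6%), with a median of -0.26. In introns 7 of 19 tested members were called lower and 5 higher, beside 21% and 20.3% of all genes. The zinc finger repressor *snai1*, which drives epithelial cells to become migratory, had 3212, 3829.7, 4232 and 2893 in 4x zT LOF, against 6530.3, 8225, 8111 and 9704 in control MO, a log2 fold change of -1.20 (SE 0.12, adjusted p = 0.000159). The bHLH factor *twist1* had a log2 fold change of -1.05 (SE 0.24, adjusted p = 0.00691) and the planar polarity gene *prickle1* one of -1.07 (SE 0.07, adjusted p = 3.01e-05). Fibronectin (*fn1*), the matrix on which mesoderm crawls, fell modestly in exons, with 40711, 41451, 39174 and 37268 in 4x zT LOF, against 47980.4, 55337, 58217 and 55417 in control MO and a log2 fold change of -0.45 (SE 0.06, adjusted p = 0.000739). Its introns fell more, with 1522, 1624, 1707 and 1239.9 in 4x zT LOF, against 3484, 5454, 6563 and 5531 in control MO and a log2 fold change of -1.76 (SE 0.11, adjusted p = 1.35e-09), and the difference between the changes was -1.33 (SE 0.14, adjusted p = 8.91e-05).

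Neural plate and epidermis form from ectoderm. On the neural plate list 9 of 31 tested members fell in exons and 11 rose, beside 27.8% and 29.6% of all genes, with a median of -0.06. In exons 1 gene passed 2-fold in each direction (3.23%, beside 3.51% lower and 5.48% higher of all genes). These exon shares lay near those of all genes. In introns 6 of 17 tested members were called higher and 2 lower (beside 20.3% and 21% of all genes), with a median of 0.26. The neural HMG-box gene *sox2* had 12110.1, 10812, 10605 and 8461 in 4x zT LOF, against 10951, 11584, 11363 and 10742 in control MO, with overlapping groups and a log2 fold change of -0.10 (SE 0.07, adjusted p = 0.291) and a 95% interval of -0.24 to 0.05, and it was called lower without replicate 1 (-0.19, adjusted p = 0.0472). *zic1*, a zinc finger gene of the neural plate border, had 22451, 20117, 19031 and 18704 in 4x zT LOF, against 17411, 15171, 13266 and 13654 in control MO, a log2 fold change of 0.44 (SE 0.05, adjusted p = 0.000211). The epidermis list had 21 of 28 tested members lower, 1 higher, and a median of -0.31, beside 27.8% lower and 29.6% higher among all genes, and 4 members were at least 2-fold lower (14.3%, beside 3.51%). They included the ciliary regulator *foxj1* at -1.58 (SE 0.19, adjusted p = 0.000344), *tp63*, a basal epidermis factor, at -1.28 (SE 0.17, adjusted p = 0.00047), and the keratin *krt19* at -1.71 (SE 0.22, adjusted p = 0.000485). *krt19* had 702, 578, 1410.2 and 282 in 4x zT LOF, against 1664, 1260.1, 5011 and 1829 in control MO, with overlapping groups. In introns 8 of 26 tested members of the epidermis list were called lower and 7 higher, beside 21% and 20.3% of all genes. The summed neural markers came to 40324 to 51252 normalized counts in 4x zT LOF and 37518 to 43587 in control MO, and the summed epidermis markers to 53461 to 66527 in 4x zT LOF and 57431 to 81351 in control MO, ranges that overlap in both cases.

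Ribosomal protein genes were mostly a little lower, with 61 of 72 called lower (84.7%, beside 27.8% of all genes), none called higher, none past 2-fold, and a median log2 fold change of -0.33 that ranged from -0.58 to -0.14 over the pairs. The list of stress, p53 and innate immunity genes had 9 of 28 tested members lower and 9 higher (32.1% each way, near the 27.8% and 29.6% of all genes) and a median of 0.05. Its largest changes were falls of the complement gene *c3*, with 92.5, 195, 266 and 116 in 4x zT LOF, against 283, 377, 1595 and 842 in control MO and a log2 fold change of -2.04 (SE 0.28, adjusted p = 0.000662), and of *nfkbia*, an inhibitor of NF-kB, with -1.42 (SE 0.08, adjusted p = 2.31e-05). On the germ cell list of 10 genes 3 fell and 4 rose, beside 27.8% and 29.6% of all genes. The 3 that fell were *ddx4*, *nanos1*, and *sox17a*, and *sox17a* also stands on the endoderm list, so its fall need not be one of germ cells. *dnd1*, an RNA-binding protein of germ cells that is supplied maternally, had 5101, 5961, 6062 and 7286 in 4x zT LOF, against 1358, 2360.3, 1466 and 2650.3 in control MO, a log2 fold change of 1.68 (SE 0.12, adjusted p = 3.84e-05).

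**Figure D3:**
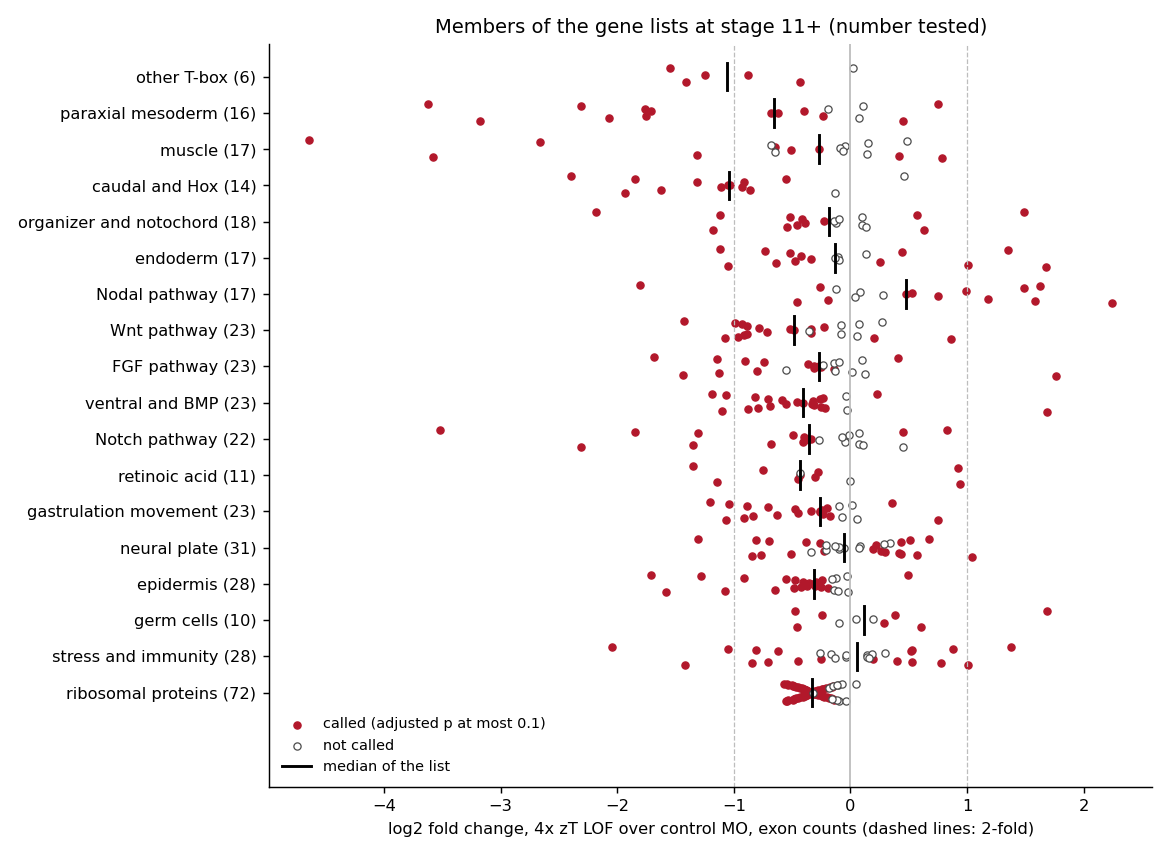
Log2 fold change in exon counts, 4x zT LOF over control MO, of each tested member of 18 gene lists (all but the targeted genes), filled where called and open where not, with a bar at the list's median and dashed lines at 2-fold. Medians lie near -1 for other T-box genes (-1.06) and for caudal and Hox genes (-1.04), and above 0 for the Nodal pathway (0.47).

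The 10 largest rises named other kinds of genes. Chosen by the rule used for the falls, they were in *fam65b*, *ppargc1b*, *lonrf3*, *elk1*, *arhgap11a.2*, *dctpp1*, *plcl2*, *c14orf79*, *tm2d3*, and *sertad2*. *fam65b* (Xetro.F00704) had 529, 460.2, 507 and 588 in 4x zT LOF, against 20.6, 19.1, 20.7 and 6.94 in control MO, a log2 fold change of 4.98 (SE 0.24, adjusted p = 1.38e-05). *ppargc1b*, a transcriptional coactivator of mitochondrial genes, had 129, 347, 174 and 383 in 4x zT LOF, against 10.3, 37.1, 7.23 and 23.4 in control MO, a log2 fold change of 3.77 (SE 0.21, adjusted p = 1.98e-05). The ring finger gene *lonrf3* had 2532, 3182, 10979 and 4721 in 4x zT LOF, against 199.9, 255, 419 and 1048 in control MO, a log2 fold change of 3.52 (SE 0.35, adjusted p = 0.000159). No 4x zT LOF library of these genes fell as low as a control library, although *lonrf3* spread widely within both groups. *elk1*, an ETS factor that responds to MAP kinase, had a log2 fold change of 3.37 (SE 0.23, adjusted p = 3.85e-05).

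Introns followed the exons of some of the 10 largest rises and not of others. *lonrf3* introns were at 517, 715, 1913 and 1022 in 4x zT LOF, against 26.4, 51.4, 65.0 and 152 in control MO, a log2 fold change of 3.81 (SE 0.23, adjusted p = 5.78e-10). *elk1* introns were few, with 39.2, 23.2, 21.9 and 31.2 in 4x zT LOF, against 3.60, 1.09, 0.96 and 5.05 in control MO, a log2 fold change of 3.34 (SE 0.37, adjusted p = 1.69e-06). For *fam65b* the introns rose with a log2 fold change of 1.05 (SE 0.31, adjusted p = 0.0151), and the difference from its exons was -3.91 (SE 0.35, adjusted p = 2.54e-05). In contrast *arhgap11a.2* had 1803, 2212, 1713 and 2529 in 4x zT LOF, against 215, 248, 169 and 204 in control MO in exons, a log2 fold change of 3.3 (SE 0.11, adjusted p = 2.14e-06), and 13.7, 17.1, 11.4 and 16.6 in 4x zT LOF, against 15.6, 9.83, 13.4 and 16.8 in control MO in introns, where the groups overlapped and the log2 fold change was 0.06 (SE 0.30, adjusted p = 0.897). *dctpp1*, a pyrophosphatase of modified nucleotides, had 3.02 (SE 0.21, adjusted p = 3.84e-05) in exons and 0.03 (SE 0.31, adjusted p = 0.946) in introns, and *tm2d3* had 2.65 (SE 0.13, adjusted p = 1.22e-05) and 0.11 (SE 0.31, adjusted p = 0.818). Mean intron counts were low, at 15.8 for *elk1*, 13.5 for *fam65b*, 14.3 for *arhgap11a.2*, 24.0 for *dctpp1* and 16.2 for *tm2d3*. All lie below the 50 asked of the named intron-exon differences. The introns of *plcl2*, *c14orf79*, *sertad2*, and *ppargc1b* were not tested, and their exon log2 fold changes ranged from 2.62 to 3.77.

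Across all 10209 genes tested in both, 2873 were called in both, 1093 of them lower in both and 820 higher in both. Another 538 were lower in exons and higher in introns, and 422 the reverse. Of the 337 genes at least 2-fold lower in exons that were tested in introns, 224 were called lower there and 9 higher. Of the 441 genes at least 2-fold higher in exons that were tested in introns, 132 were called higher there and 59 lower. Among all genes tested in introns 20.3% were called higher and 21% lower. The test of the difference between the changes called 3068 genes (30.1%), 1532 with introns lower relative to exons and 1536 with introns higher. Which side had more calls depended on the method, since scaling by total counts alone gave 1956 lower and 1115 higher and limma with the block 1814 lower and 2552 higher. The difference was at least 2-fold in 1028 genes (10.1%), 645 with introns lower (6.32%) and 383 with introns higher (3.75%), against 836 and 269 by total counts and 554 and 514 by limma.

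Among called genes with a symbol, at least 50 counts in both and one direction in all 4 pairs, introns rose most relative to exons in *ephb4*, *dhrs12*, and *tbxt*. *ephb4*, a receptor of ephrins that guides cell contacts, had 1959, 2797, 2314 and 2212 in 4x zT LOF, against 3201, 4083, 4625 and 4132 in control MO in exons and 679.9, 710.3, 774 and 622 in 4x zT LOF, against 88.7, 99.4, 80.3 and 97.6 in control MO in introns, so that it fell in exons, with a log2 fold change of -0.79 (SE 0.08, adjusted p = 0.00016), and rose in introns, with one of 2.92 (SE 0.12, adjusted p = 2.92e-12), a difference of 3.70 (SE 0.18, adjusted p = 1.27e-07). *dhrs12*, a gene of the short-chain dehydrogenase family, differed by 2.74 (SE 0.32, adjusted p = 0.000162). Introns fell most relative to exons in *gadd45gip1*, *sobp*, and *mdh2*, with differences of -2.84 (SE 0.29, adjusted p = 5.83e-05), -2.79 (SE 0.36, adjusted p = 0.000289), and -2.75 (SE 0.17, adjusted p = 1.18e-06). Mitochondrial malate dehydrogenase *mdh2* had 2154, 1899, 2685 and 2216 in 4x zT LOF, against 829, 689, 1076 and 738 in control MO in exons and 73.9, 53.8, 64.9 and 61.4 in 4x zT LOF, against 162, 127, 203 and 139 in control MO in introns, with no overlap in either. For *sobp* the exons had 3.74, 282, 202 and 257 in 4x zT LOF, against 3.43, 119, 88.9 and 104 in control MO, so that both libraries of replicate 1 lay far below the rest of their groups, and its exon change was not called without the block (adjusted p = 0.441).

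**Figure D4:**
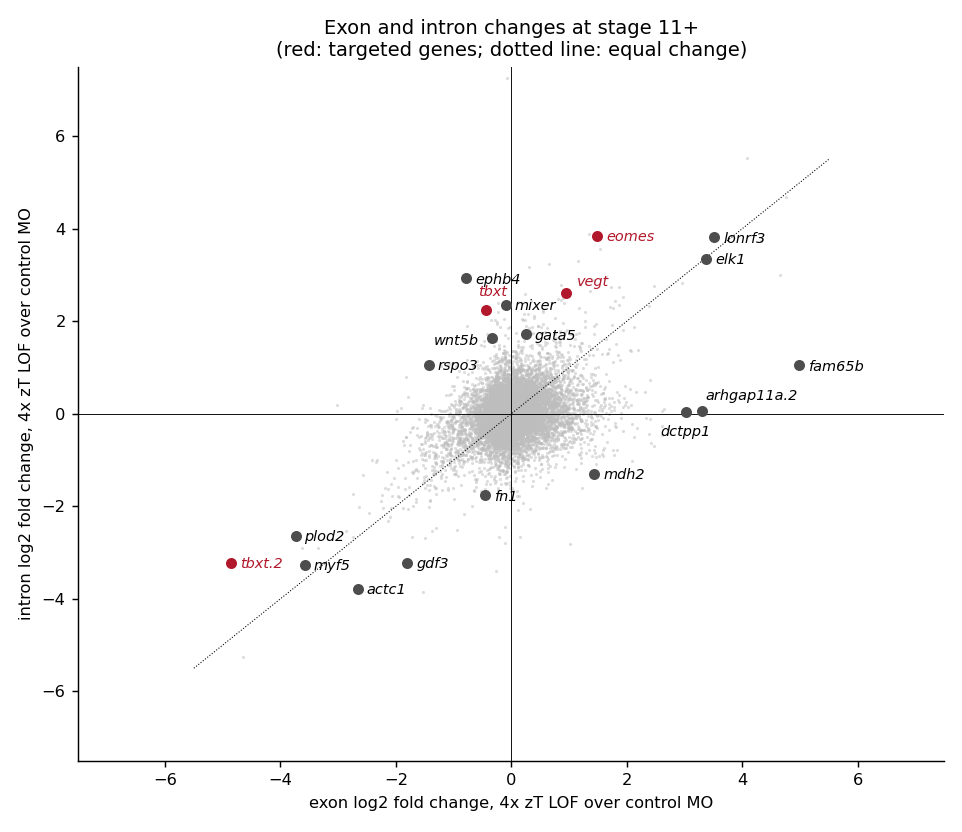
Log2 fold change of 4x zT LOF over control MO in introns (vertical) against that in exons (horizontal) for 10209 genes, with the targeted genes in red and other named genes in dark gray, and a dotted line where both are equal. *myf5*, *lonrf3*, and *elk1* lie near the line, *ephb4*, *tbxt*, *mixer*, and *rspo3* lie well above it, and *arhgap11a.2*, *dctpp1*, and *mdh2* lie well below.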

How the data were processed

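The authors aligned paired-end reads of poly(A) RNA with STAR 2.5.3a and counted them without strand on exons and introns per gene model of genome assembly v7.1. The deposited counts were not normalized and come as 1 exon and 1 intron file per library, with 28148 and 23701 genes. Overlapping or antisense genes and close copies can share reads. Symbols, known for 12827 genes, came from the deposited files and the study's gene tables, and neighbors from RefSeq (UCB_Xtro_10.0).

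Counts were filtered with filterByExpr, normalized by TMM and tested in R 4.3.3 with edgeR 4.0.16 (quasi-likelihood test, replicate number plus condition). The SE is the absolute log2 fold change over the square root of the test's F statistic. The 95% intervals are approximate, as 1.96 SE with a normal quantile, and are narrower than the p-values of the test imply. A further edgeR fit over exon and intron columns, with library as a block, tested whether the changes differ. Ratios within a pair added 0.5. Alternatives used limma 3.58.1 and DESeq2 1.42.0, and the fits were tested on simulated data. Deviations from group means correlated by 0.69 to 0.83 between same-numbered libraries in exons (0.46 to 0.61 in introns) and by -0.48 to 0.16 between others, so the numbers pair the libraries. The labels do not state what a number shares, and p-values of the exon and intron fits with the block measure the spread between these 4 pairs. The edgeR fit of the intron-exon difference did not use the pairing. Its p-values measure the spread of intron against exon counts between libraries of a group. Named genes are the targeted ones, members of 19 lists, the 10 largest falls and rises, and the 3 largest intron-exon differences each way. Lists can share genes, and a shared gene is counted in each. The experiment and the lists were chosen with earlier results of these data known.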

Additional observations from a re-analysis of the deposited data

Results flagged for a closer look

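Among the 176 groups of 4 libraries behind the named genes, 13 held a library that lay far from the other 3 in normalized exon counts, and chance alone puts about 5% of groups there. In 4x zT LOF, replicate 2 was high for *tbxt.2* at 321 (the others 21.8 to 68.2), for *myod1* at 24.5 (2.84 to 6.54), for *myf5* at 445 (112 to 156) and for *spry4* at 418 (216 to 241). Replicate 1 was high for *elk1* at 244 (96.6 to 120.1). Replicate 4 was low for *foxc2* at 760.4 (1324 to 1435) and high for *dand5* at 567 (267 to 305).

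In control MO, replicate 1 was low for *hes9.1* at 219 (501 to 522) and for *prickle1* at 9023 (9945 to 10122). Replicate 2 was high for *pcdh8.2* at 21026 (16521 to 16609) and for *chrd* at 15373 (12658 to 13051). Replicate 3 was high for *krt19* at 5011 (1260.1 to 1829), and replicate 4 was low for *fam65b* at 6.94 (19.1 to 20.7).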

How the results depend on the processing

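Without the replicate block 4910 genes were called in exons and 2299 in introns, against 8733 and 4414 with the pairing in the fit. With limma the difference between intron and exon changes was called for 2975 genes without the block and for 4366 with it. The edgeR fit of this difference, with 3068 calls, had no replicate block. DESeq2's likelihood ratio test called 2875 genes in introns. Asking for 2-fold left 1368 genes in exons and 744 in introns. At least 10 counts in every library left 217 intron genes 2-fold lower and 247 2-fold higher, and no filter gave 621 higher. Leaving out 1 pair gave 7003 to 8460 exon calls and 1537 to 2543 calls of the intron-exon difference, the lowest without replicate 4. Medians of lists differed in introns, at 2.42 for the targeted genes, 0.087 for other T-box genes, -0.48 for muscle, 0.34 for organizer and notochord, 0.025 for endoderm, -0.040 for ventral and BMP, 0.21 for Nodal, -0.020 for Wnt, -0.47 for caudal and Hox, 0.26 for neural plate, -0.041 for epidermis, 0.066 for gastrulation movement, 0.064 for Notch, -0.061 for retinoic acid, and 0.0027 for germ cells. Except for the targeted genes, fewer members of these lists were tested in introns than in exons. Examples are 11 against 17 for Nodal and 6 against 14 for caudal and Hox. The medians of the 2 count types are therefore not over the same genes. Leaving out 1 pair moved the neural plate median to between -0.067 and 0.046 and that of stress genes to between 0.0022 and 0.051. Summed exon and intron counts gave *tbxt* -0.16, no longer called, and *rspo3* -0.18 (adjusted p = 0.339), likewise, and turned *sobp* to -0.27 (adjusted p = 0.237). In these cases the cause was not tested. Of the 84 named genes that were not targeted, tested without the block, 78 stayed on their side of the threshold. Leaving out 1 pair brought calls for *sox2* and *mixer* (without replicate 1) and *fgf8* (without replicate 3) and ended the exon call of *dhrs12* (0.14 without replicate 3, adjusted p = 0.141). Of the caudal and Hox members 19 and of the muscle members 8 had too few exon counts to test, so these lists are described in part.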
